A study of Mus musculus with 3 samples.

Results

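The DNA damage checkpoint and repair genes described here are 53 mouse genes chosen by name and sorted by known role into 8 pathways. These genes, the pathways and the further lists below were chosen with earlier results of these data known. Their comparisons with all genes are therefore descriptions. A gene entered when a probe carrying one of its RefSeq accessions exceeded background clearly (the scanner software's mark "well above background") in any of the 3 arrays. That held for 52 of the 53, out of 14012 genes with such a probe among 20010 named genes. Rad51c was matched by no probe, so it has no expression value here and enters through its promoter sequence alone. The gene of claspin appears as Clspn, and that of histone H2AX as H2ax.

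RNA came from primary mouse embryonic fibroblasts, connective-tissue cells grown out of an E10.0 embryo of a C57BL/6J mouse with both Rb and ATM knocked out (Rb-/-;ATM-/-). All groups thus carried knockouts of the genes for the retinoblastoma protein, which restrains S-phase transcription, and for the ATM kinase, which relays the presence of broken DNA. The Dnmt1 shRNA group carried a vector whose short hairpin RNA targets Dnmt1, the maintenance DNA methyltransferase, the ATM vector group a vector expressing ATM, and the empty vector group a vector without insert. Each culture was selected in puromycin at 4 ug/ml for 3 days, grown for 4 further days and hybridised to 1 Agilent 1-colour array. The promoters that drive the hairpin and ATM are not given in the sources used here, nor is whether the cultures came from the same embryo.

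Cells answer DNA damage in stages. Sensors such as the Mre11-Rad50-Nbn complex and the Rad9-Hus1 clamp recognise lesions and start kinase signalling through ATM or ATR, which passes to the checkpoint kinases and delays division. Broken ends are then rejoined directly or copied from the sister chromatid by homologous recombination, and damaged bases, bulky adducts, crosslinks and mispaired bases each have a dedicated repair pathway. Many of the recombination and crosslink repair genes are transcribed mainly in S phase, under E2F factors that the retinoblastoma protein restrains.

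Each array had 39404 probes, of which 55.0% to 59.6% were well above background. Values are log2 processed signals minus the 75th percentile of their array, called normalized log2 signal here. With 1 array per group no difference has a replicate culture, so no test, SE or p-value is given. The spread that could be measured is technical: repeated spots of a probe had a median SD of 0.061 to 0.080 on the log2 scale, and log2 ratios of different probes of one gene had a pooled SD of 0.21 for Dnmt1 shRNA over empty vector and 0.34 for ATM vector over empty vector. The Dnmt1 probe read 956 intensity units in the Dnmt1 shRNA array, 3169 in the ATM vector array and 4908 in the empty vector array. It was thus lowest in the array labelled as the knockdown. One Atm probe stayed at background in all arrays, and the other read 366, 409 and 430 in the same order. Their position relative to the deleted part of the gene or to the vector is not known, so the Atm probes check neither label. All 10 fibroblast markers were well above background in the Dnmt1 shRNA and ATM vector arrays, and 9, all but Thy1, in the empty vector array. Of 7 epithelial markers, 5, 2 and 2 were well above background in the Dnmt1 shRNA, ATM vector and empty vector arrays, with summed linear signals of 3.06, 0.506 and 2.37 times the 75th percentile, against 528, 602 and 491 for the fibroblast markers. In the same order the summed signals were 1.44, 3.13 and 0.97 for striated muscle markers (3, 1 and 1 of 5 well above background) and 0.52, 0.259 and 0.306 for blood and macrophage markers (2, 2 and 3 of 4). They were 0.159, 0.183 and 0.143 for endothelial markers and 13.1, 13.6 and 10.4 for neural markers, with 3 of 5 well above background on each array in both lists. Their part in the results below was not tested. The Dnmt1 shRNA and empty vector arrays shared slide 1 and scan 1, whereas the ATM vector array was alone on slide 2 and scan 2, so that slide and ATM vector cannot be told apart. The spike-in control probes had a median normalized log2 signal of -2.93, -4.51 and -3.10 in the Dnmt1 shRNA, ATM vector and empty vector arrays. They were thus lowest in the ATM vector array. The arrays were not scaled to these probes, so lower and higher below are relative to the other signals of each array.

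The promoters of 44 of the listed genes, Rad51c included, were held in the RefSeq table of GRCm38.p6, as 48 windows of 300 bases from 250 before to 50 after the gene start. Since Dnmt1 acts on cytosines followed by guanines, their number was counted. Member windows had 7 to 38 such CpG dinucleotides with a median of 22. The median was 20 in the 12806 windows of all genes measured on the Dnmt1 shRNA and empty vector arrays, and 7 in all 32851 windows. Divided by the number expected from the C and G content, the median was 0.857 in member windows, 0.741 in those 12806 and 0.384 in all windows. Methylation itself was not measured. The 4 windows below belong to the members with the lowest and the highest log2 ratio in each comparison, so that the promoters at the ends of the range can be read. They are Rad54l (chr4:116123641-116123940) and Xrcc4 (chr13:90089559-90089858) for Dnmt1 shRNA over empty vector, and Trp53bp1 (chr2:121271358-121271657) and Xpa (chr4:46196262-46196561) for ATM vector over empty vector. All 4 lie on the minus strand and are written 5′ to 3′ along the gene, with each CpG in capitals.
Rad54l: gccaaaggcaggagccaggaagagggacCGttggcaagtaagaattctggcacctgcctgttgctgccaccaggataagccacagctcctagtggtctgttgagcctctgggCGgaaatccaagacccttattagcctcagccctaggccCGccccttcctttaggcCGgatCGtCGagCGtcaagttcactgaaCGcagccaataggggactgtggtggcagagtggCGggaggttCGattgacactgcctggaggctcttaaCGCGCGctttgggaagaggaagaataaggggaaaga
Xrcc4: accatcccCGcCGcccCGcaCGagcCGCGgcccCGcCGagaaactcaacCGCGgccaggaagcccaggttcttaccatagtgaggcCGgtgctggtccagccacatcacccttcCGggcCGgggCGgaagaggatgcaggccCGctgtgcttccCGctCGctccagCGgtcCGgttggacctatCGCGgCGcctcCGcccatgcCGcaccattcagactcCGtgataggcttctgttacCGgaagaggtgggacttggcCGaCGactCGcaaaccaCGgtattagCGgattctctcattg
Trp53bp1: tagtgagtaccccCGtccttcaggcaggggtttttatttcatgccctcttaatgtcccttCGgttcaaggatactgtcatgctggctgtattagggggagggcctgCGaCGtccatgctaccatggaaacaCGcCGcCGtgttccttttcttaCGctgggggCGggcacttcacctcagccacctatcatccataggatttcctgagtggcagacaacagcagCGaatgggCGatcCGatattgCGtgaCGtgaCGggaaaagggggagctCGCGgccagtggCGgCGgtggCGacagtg
Xpa: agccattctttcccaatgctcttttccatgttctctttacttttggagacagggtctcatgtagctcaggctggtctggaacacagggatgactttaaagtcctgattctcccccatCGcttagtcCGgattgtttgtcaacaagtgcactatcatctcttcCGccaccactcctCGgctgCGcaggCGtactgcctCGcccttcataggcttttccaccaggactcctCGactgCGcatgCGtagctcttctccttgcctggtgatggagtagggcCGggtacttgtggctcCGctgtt
They hold 13, 31, 20 and 12 CpG dinucleotides in the order printed.

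The same windows were searched on both strands for 4 words that E2F factors are known to bind, TTTCCCGC, TTTGGCGC, TTTCGCGC and TTTGCCGC. At least 1 word stood in 12 of the 48 member windows (25%), against 3.8% of the windows of genes measured on the Dnmt1 shRNA and empty vector arrays and 2.26% of all windows. Among members with known cell-cycle-regulated transcription the share was 38.5% (5 of 13 windows), against 20.0% (7 of 35 windows) among the other members. Genes with a word were Bard1, Brca2, Chek2, Clspn, Fancg, Mdc1, Msh3, Msh6, Rad51c, Topbp1 and Xrcc6. None of the 4 printed windows holds one, which says only that these letters are not there. Each word contains a CpG, and some genes have overlapping windows that share sequence, so the shares are descriptions.

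The first comparison asks how these genes differ when Dnmt1 is depleted. In the Dnmt1 shRNA array the checkpoint and repair genes were slightly lower across nearly all pathways, and none was far from its level in the empty vector array. Of 51 members measured on both arrays, 42 (82.4%) had a log2 ratio below 0, against 54.7% of all 12574 genes measured on both. The members' median log2 ratio was -0.19, against -0.03 for all genes, a difference of -0.16. Their middle 50% lay between -0.28 and -0.09, against -0.20 and 0.18 for all genes. Only 9 members were above 0, against 45.3% of all genes. At least 1.5-fold lower was 1 member, Rad54l (2.9% of all genes), at least 1.5-fold higher were 0 (8.19% of all genes), and 0 members differed by 2-fold in either direction (0.748% of all genes lower and 3.52% higher). Many single values were thus no larger than the SD between probes of one gene, and the counts describe their sign. The members' median minus that of all genes lay between -0.17 and -0.097 under the 11 alternatives tried. Atr, Rnf168, Palb2, Lig4, Msh6, Ercc4 and Xpa, above 0 here, were below 0 when array medians were subtracted, while Rad51b and Xrcc4 stayed above 0. In a bulk culture, fewer cells of a type and less RNA per cell cannot be told apart.

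**Figure D1:**
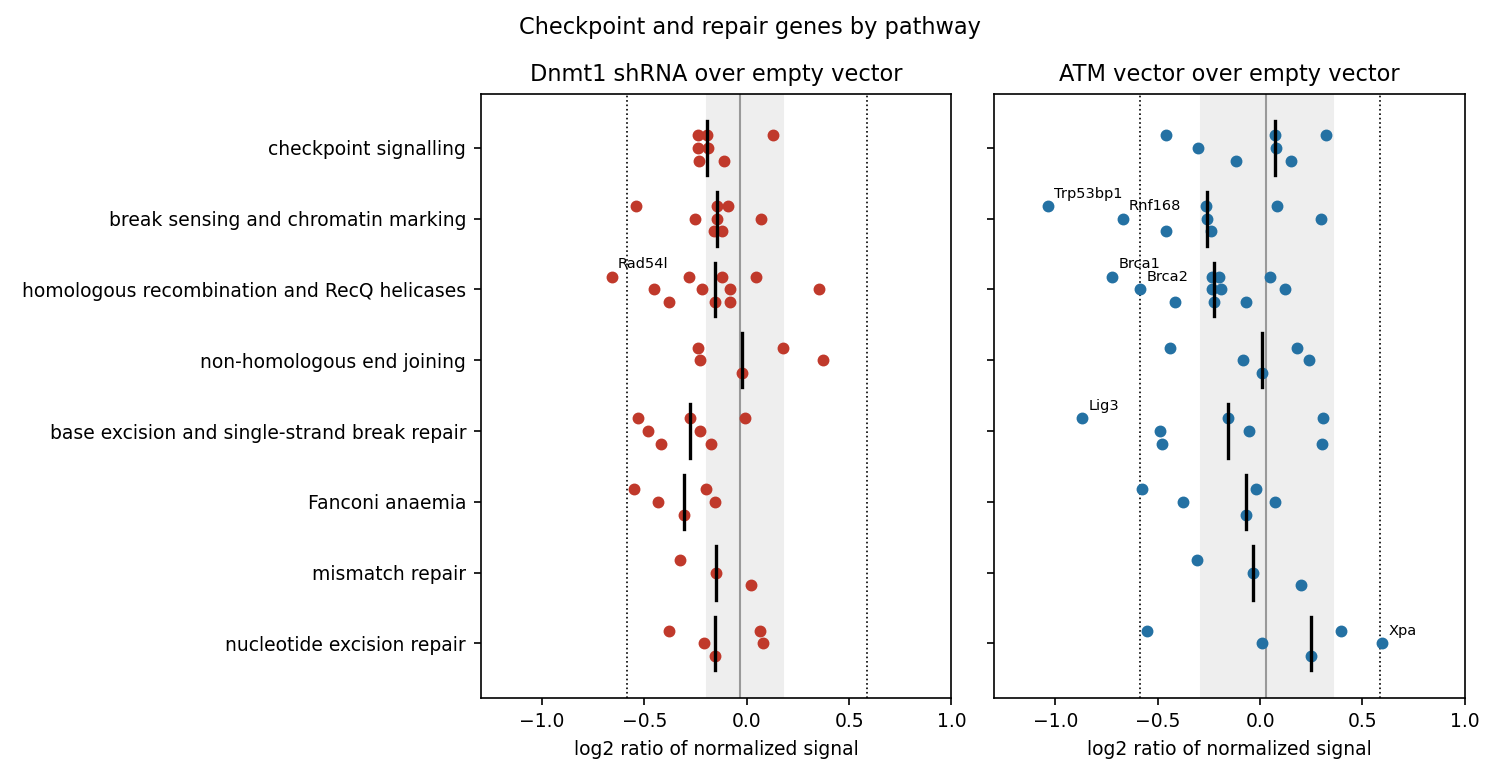
Log2 ratio of normalized signal of each member (points), by pathway, for Dnmt1 shRNA over empty vector (left) and ATM vector over empty vector (right), with the pathway median as a black bar. The grey band holds the middle 50% of all genes, the grey line their median and the dotted lines 1.5-fold. In the left panel 42 of 51 members lie below 0, and in the right panel the spread is wider, with 5 members beyond 1.5-fold lower and 1 beyond 1.5-fold higher.

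The second comparison asks how the genes differ between cells given ATM and cells given an empty vector. In the ATM vector array the members differed by pathway, with 6 of 8 break-sensing and 9 of 11 recombination members lower. Of the nucleotide excision repair members 4 of 5 were higher, and the end-joining median lay around 0. Many single values were no larger than the SD of 0.34 between probes of one gene. Slide and ATM vector cannot be told apart here. Among further genes of these pathways, 3 of 7 break-sensing genes were below 0, with a median of 0.01, near that of all genes. Of further recombination genes 11 of 20 (55.0%) were below 0, a share nearer to that of all genes. Their median of -0.20 was close to that of the recombination members, -0.23. Of further nucleotide excision repair genes 4 of 14 (28.6%) were below 0, and their median of 0.11 lay above 0 like that of the members. Of 51 members measured on both arrays 32 (62.7%) were below 0, against 47.6% of all 12163 genes, and 19 were above 0, against 52.4%. The median log2 ratio was -0.12, against 0.03 for all genes, and the middle 50% lay between -0.40 and 0.08, against -0.29 and 0.35. At least 1.5-fold lower were 5 members (11.3% of all genes), namely Trp53bp1, Lig3, Brca1, Rnf168 and Brca2. At least 1.5-fold higher was 1, Xpa (14.1% of all genes). Only Trp53bp1 passed 2-fold lower (4.63% of all genes) and 0 passed 2-fold higher (6.21%). The share of members past 1.5-fold was thus close to the background for lower genes and below it for higher ones, and nothing about the members is read from these counts. Both comparisons use the same empty vector array.

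**Figure D2:**
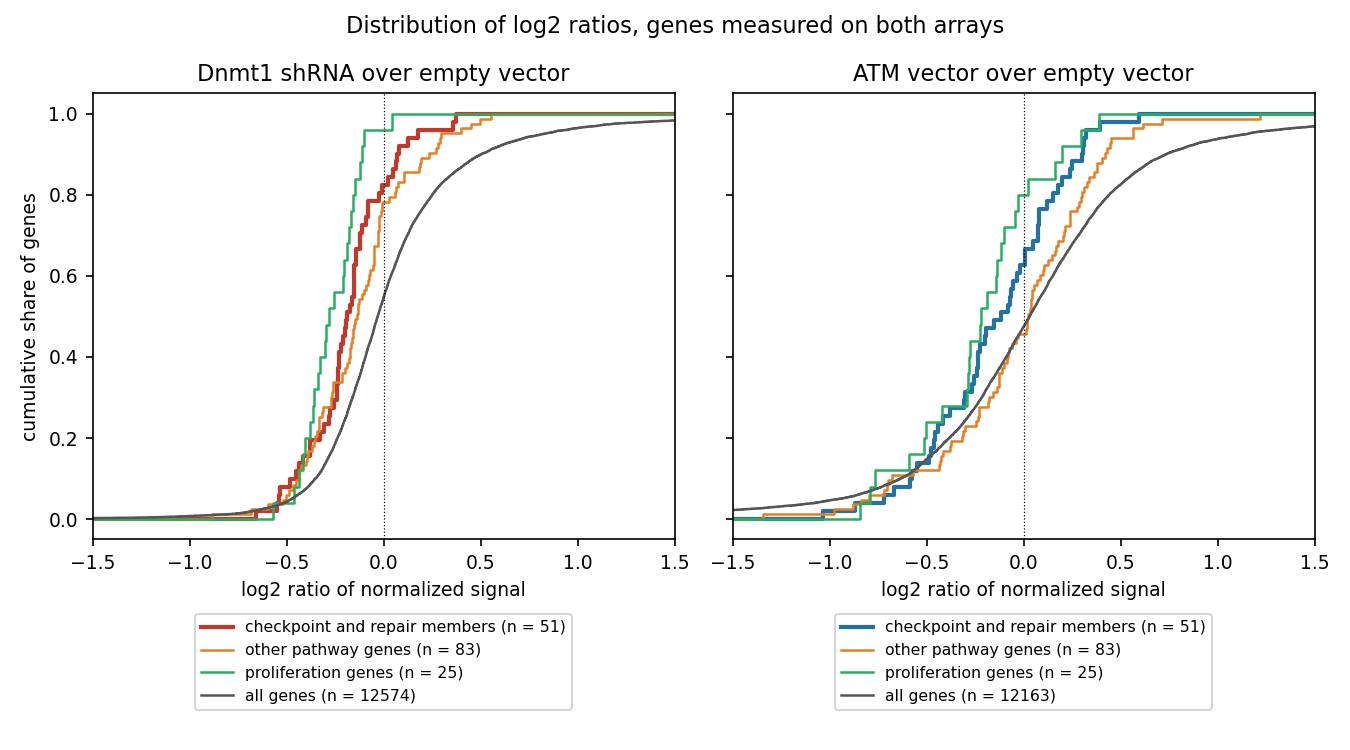
Cumulative share of genes (vertical axis, as a fraction) by log2 ratio of normalized signal (horizontal axis) for Dnmt1 shRNA over empty vector (left) and ATM vector over empty vector (right), drawn for the members, the other pathway genes, the proliferation genes and all genes. On the left the member curve crosses 0 at 82.4% and the curve of all genes at 54.7%, and on the right at 62.7% and 47.6%.

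Checkpoint signalling comprises Atr, the kinase that answers stalled replication, its activator Topbp1, the adaptor claspin (Clspn), the effector kinases Chek1 and Chek2, the clamp loader Rad17 and the clamp subunits Rad9a and Hus1. Clspn had a normalized log2 signal of -1.78 in the Dnmt1 shRNA array, -2.00 in the ATM vector array and -1.54 in the empty vector array, so it was lowest with ATM (log2 ratios -0.24 and -0.46). Rad17 stood at 1.44, 1.95 and 1.63 in the same order. It was thus highest in the ATM vector array and lowest in the Dnmt1 shRNA array (log2 ratios -0.19 and 0.32), an order that Rad9a, Hus1 and Chek2 shared. The clamp subunits Rad9a (-0.11 with Dnmt1 shRNA and 0.15 with ATM vector) and Hus1 (-0.19 and 0.07) had the same signs as Rad17. Hus1 lay below 0 with ATM vector under 1 of the 11 alternatives. Topbp1 was below 0 in both comparisons (-0.24 and -0.30). Atr differed little, at 0.13 with Dnmt1 shRNA and -0.12 with ATM vector. Chek1 was well above background in the Dnmt1 shRNA array alone, with 42.9 intensity units there, 38.3 in the ATM vector array and 40.4 in the empty vector array. These values lie so near the detection level that no fold is drawn from them. Chek2 was detected on each array and stood at -0.23 and 0.08. The pathway median was -0.19 with Dnmt1 shRNA and 0.07 with ATM vector. The value with ATM vector lay between -0.01 and 0.08 under the alternatives.

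Break sensing and chromatin marking showed the largest single difference. Trp53bp1 encodes the chromatin reader that shields broken ends and favours direct rejoining over recombination. Its normalized log2 signal was -2.54 in the Dnmt1 shRNA array, -3.03 in the ATM vector array and -2.00 in the empty vector array. It was 1.46-fold lower with Dnmt1 shRNA and 2.05-fold lower with ATM vector. Both of its probes showed this, at -0.43 and -0.65 with Dnmt1 shRNA and at -0.88 and -1.19 with ATM vector. The dimmer probe read 59.5, 41.7 and 104.7 intensity units in the Dnmt1 shRNA, ATM vector and empty vector arrays, near the detection level, and with normexp background correction the ATM vector ratio of the gene was -0.65. Rnf168, the ubiquitin ligase whose histone mark recruits that reader, stood at 1.65, 0.91 and 1.58 in the same order, 1.59-fold lower with ATM vector and at 0.07 with Dnmt1 shRNA. Rnf8, the ligase acting before it, was near 0 in both (-0.15 and 0.08). Mdc1, the scaffold that binds phosphorylated H2AX, stood at -0.12 and -0.27, and H2ax itself at -0.26 in both. Of the sensor complex, the nuclease Mre11a stood at -0.14 with Dnmt1 shRNA and -0.46 with ATM vector, and Nbn at -0.16 and -0.24. The Rad50 probes disagreed with ATM vector, at 0.00 and 0.60, so Rad50 has no clear direction there. With ATM vector, 6 of 8 members were below 0, against 47.6% of all genes. The pathway median of -0.26 was the lowest of the 8 pathways, but this rank depends on the processing. Under the alternatives it lay between -0.33 and -0.21. The recombination median lay between -0.27 and -0.15 and the base excision median between -0.22 and -0.14.

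**Figure D3:**
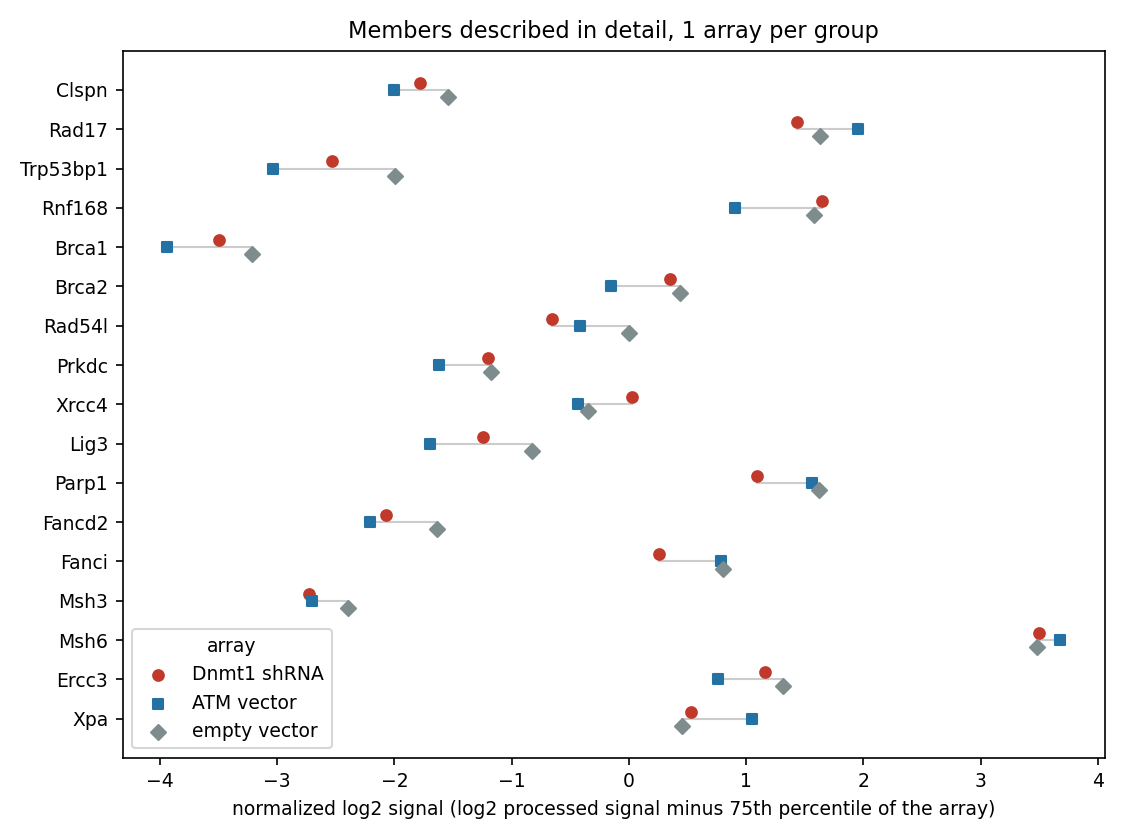
Normalized log2 signal (horizontal axis) of the 17 members described with all their values, with 1 point per array: Dnmt1 shRNA (circles), ATM vector (squares) and empty vector (diamonds). Trp53bp1, Rnf168, Brca1, Brca2, Lig3 and Ercc3 are among those lowest in the ATM vector array, Rad54l, Parp1 and Fanci are lowest in the Dnmt1 shRNA array, and Xpa is highest in the ATM vector array.

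Homologous recombination genes had a median of -0.15 with Dnmt1 shRNA and -0.23 with ATM vector, and the members with the largest differences were not the same. Brca1, which promotes end resection, had a normalized log2 signal of -3.50 in the Dnmt1 shRNA array, -3.94 in the ATM vector array and -3.22 in the empty vector array. It was 1.22-fold lower with Dnmt1 shRNA and 1.65-fold lower with ATM vector, where normexp gave a log2 ratio of -0.38. Brca2, which loads the recombinase, stood at 0.36, -0.15 and 0.44 in the same order. It was thus close to its empty vector level with Dnmt1 shRNA and 1.5-fold lower with ATM vector, at the threshold itself. Rad54l, a motor protein that helps the recombinase pair DNA strands, stood at -0.66, -0.42 and 0.00, and was the one member 1.58-fold lower with Dnmt1 shRNA. It passed 1.5-fold there under all 11 alternatives. Rad54l has 1 probe, however, well above background on all arrays, so alternatives that only choose among probes could not change its value. The recombinase paralogue Xrcc2 stood at -0.45 and -0.19, and the helicase Blm at -0.38 and -0.23. Bard1, the partner of Brca1, stood at -0.22 and -0.07, and Palb2, which joins Brca1 to Brca2, at 0.05 and -0.24. Another paralogue, Rad51b, was higher in both, at 0.36 and 0.12. Rad52, Xrcc3 and Wrn lay between -0.15 and -0.08 in the first comparison and between -0.24 and 0.05 in the second. With 11 members measured, 9 were below 0 in each comparison, against 54.7% of all genes with Dnmt1 shRNA and 47.6% with ATM vector. Of the 20 further recombination genes, 85.0% and 55.0% were below 0 in the same order.

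Non-homologous end joining, which seals broken ends without a template, had the median closest to 0 with Dnmt1 shRNA among the members' pathways. This held for the 5 members alone, since the 7 other measured genes of the pathway had a median of -0.16. Of these 7, 6 were below 0, against 54.7% of all genes. Xrcc4, the scaffold of the final ligation, had a normalized log2 signal of 0.02 in the Dnmt1 shRNA array, -0.43 in the ATM vector array and -0.35 in the empty vector array. Its log2 ratio of 0.37 with Dnmt1 shRNA was the highest of all members. Its ligase Lig4 stood at 0.18 in both comparisons, though at -0.06 with Dnmt1 shRNA when array medians were subtracted. Prkdc, the DNA-dependent kinase that is a relative of ATM, stood at -1.20, -1.62 and -1.18, so that it was at -0.02 with Dnmt1 shRNA and -0.44 with ATM vector. The end-binding Ku subunits Xrcc5 and Xrcc6 were both at -0.23 to -0.24 with Dnmt1 shRNA, and at 0.24 and 0.01 with ATM vector. The pathway median was -0.02 with Dnmt1 shRNA and 0.01 with ATM vector, with no direction under the alternatives.

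The base excision and single-strand break repair members had a median of -0.28 with Dnmt1 shRNA. Of these, 7 of 7 were below 0, against 54.7% of all genes, although Xrcc1 at -0.01 crossed 0 under some alternatives. The 15 other measured genes of this pathway did not share the median, since theirs was -0.03, as for all genes. By sign they leaned the same way as the members, with 12 (80.0%) below 0, against 54.7% of all genes. Parp1, which marks strand breaks with poly(ADP-ribose), had a normalized log2 signal of 1.09 in the Dnmt1 shRNA array, 1.57 in the ATM vector array and 1.62 in the empty vector array. It was 1.45-fold lower with Dnmt1 shRNA and near its control level with ATM vector. Lig3, the ligase that acts with the scaffold Xrcc1, stood at -1.25, -1.70 and -0.83 and was 1.34-fold lower with Dnmt1 shRNA and 1.83-fold lower with ATM vector. Its probes gave -0.27 and -0.57 in the first comparison and -0.77 and -0.97 in the second. Its partner Xrcc1 was instead at 0.30 with ATM vector. The endonuclease Apex1 stood at -0.48 in both, Parp2 at -0.28 and -0.49, and the oxidised-base glycosylase Ogg1 at -0.23 and -0.16. Ung, which removes uracil from DNA, stood at -0.18 with Dnmt1 shRNA and 0.31 with ATM vector.

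The Fanconi anaemia genes, which unhook crosslinked strands, had the lowest pathway median with Dnmt1 shRNA, -0.31. There 5 of 5 members were below 0 (4 or 5 under the alternatives), against 54.7% of all genes. Fanci had a normalized log2 signal of 0.25 in the Dnmt1 shRNA array, 0.79 in the ATM vector array and 0.81 in the empty vector array. Its binding partner Fancd2 stood at -2.07, -2.21 and -1.63. The pair thus differed in the second comparison, with Fanci at -0.02 and Fancd2 at -0.58 with ATM vector, after -0.55 and -0.43 with Dnmt1 shRNA. Of the core complex that acts on them, Fanca stood at -0.31 and -0.38, Fancc at -0.16 and -0.07, and Fancg at -0.20 and 0.07.

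Mismatch repair had 3 members. Msh3, which recognises small loops, had a normalized log2 signal of -2.73 in the Dnmt1 shRNA array, -2.71 in the ATM vector array and -2.40 in the empty vector array. Msh6, which recognises single mispairs, stood at 3.50, 3.68 and 3.48. The proteins compete for the same partner, and their log2 ratios were -0.33 and -0.31 for Msh3 against 0.02 and 0.20 for Msh6. The 3 Msh3 probes gave -0.491, -0.292 and -0.199 with Dnmt1 shRNA, but -0.004, -0.563 and -0.355 with ATM vector. The size of the ATM vector difference in Msh3 is thus uncertain. The endonuclease subunit Pms2 stood at -0.15 and -0.03.

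Nucleotide excision repair, which removes bulky and ultraviolet-induced lesions, had the highest pathway median with ATM vector, 0.25. This median lay between 0.21 and 0.29 under the alternatives. Of the members 4 of 5 were above 0, against 52.4% of all genes, and Ercc4 at 0.01 crossed 0 under 2 alternatives. Xpa, which verifies the lesion, had a normalized log2 signal of 0.53 in the Dnmt1 shRNA array, 1.05 in the ATM vector array and 0.45 in the empty vector array. It was 1.51-fold higher with ATM vector, by 0.72 and 0.47 in its probes, and passed 1.5-fold under 7 of 11 alternatives. Ercc3, a helicase of the transcription factor TFIIH, lay on the other side of 0, at 1.16, 0.76 and 1.31, which is 1.46-fold lower with ATM vector. Ercc2, the other helicase of that complex, stood at -0.38 with Dnmt1 shRNA and 0.25 with ATM vector. The nuclease subunits Ercc1 and Ercc4 act as a pair, and stood at -0.21 and 0.06 with Dnmt1 shRNA and at 0.39 and 0.01 with ATM vector.

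**Figure D4:**
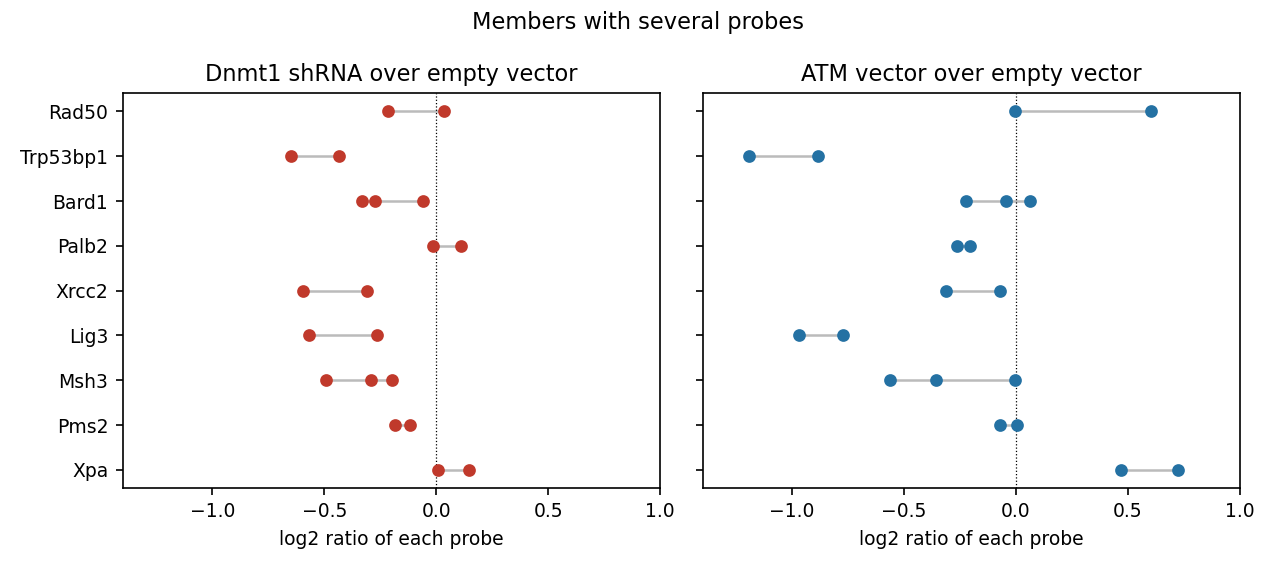
Log2 ratio of each probe (points) of the 9 members with several probes well above background on all arrays, for Dnmt1 shRNA over empty vector (left) and ATM vector over empty vector (right). The probes of Trp53bp1 and Lig3 lie below 0 in both panels and those of Xpa at 0.47 and 0.72 on the right, whereas those of Rad50 span 0.00 to 0.60.

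Members whose transcripts are known to vary through the cell cycle were set apart by a list, and 13 of its 14 genes were measured on both arrays. With Dnmt1 shRNA their median was -0.26 and 12 of 13 were below 0, against -0.15 and 30 of 38 for the other members. With ATM vector it was -0.30 with 11 of 13 below 0, against -0.06 and 21 of 38. A list of 25 general proliferation genes, such as the replicative helicase subunits, had medians of -0.28 and -0.22, against -0.03 and 0.03 for all genes. In the same order 24 and 20 were below 0, against 54.7% and 47.6% of all genes. Of the 25, 0 were at least 1.5-fold lower with Dnmt1 shRNA (2.9% of all genes) and 4 with ATM vector (11.3% of all genes). By their medians, proliferation genes were lower on the same arrays, and their part in the values of the repair genes was not tested.

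A further 87 genes of the same 8 pathways, chosen by role with earlier results of these data known, gave the wider setting. Of these, 83 were measured on both arrays. With Dnmt1 shRNA their median log2 ratio was -0.14 and 65 (78.3%) were below 0, against 54.7% of all genes. At least 1.5-fold higher were 0 (8.19% of all genes) and at least 1.5-fold lower were 3 (2.9% of all genes). The lowest were Paxip1, a break-signalling adaptor, at -0.88 and Fancf, of the crosslink repair core complex, at -0.69. With ATM vector the median was 0.02 and 38 (45.8%) were below 0, against 47.6% of all genes. At least 1.5-fold higher were 3 (14.1% of all genes) and at least 1.5-fold lower were 9 (11.3% of all genes). Those that differed most were the helicase Recql at -1.34, the mismatch repair gene Mlh3 at 1.22 and the recombination factor Rad51ap1 at -0.98. Thus both lists had medians below that of all genes with Dnmt1 shRNA, and with ATM vector the median of the wider list lay within 0.03 of that of all genes under every alternative.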

How the data were processed

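Expression was measured on 3 Agilent 1-colour arrays, 1 per group, grouped by the vector named in the labels. The submitters' processing notes name Agilent Feature Extraction 10.7.3.1 as the scanner software. Per the file headers, the authors deposited a processed signal, an intensity on a linear scale after background subtraction and without scaling between arrays, and per-spot marks for well above background, saturation and outliers. Background pixel intensities that the authors deposited served 1 alternative, as did the series matrix, which held the processed signals to within 0.495%, with column medians of 80.4 (Dnmt1 shRNA), 68.6 (ATM vector) and 75.2 (empty vector).

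Control and outlier spots (235, 167 and 228 on the Dnmt1 shRNA, ATM vector and empty vector arrays) were removed, spots of a probe averaged as log2, and the 75th percentile of each array subtracted. Of 39429 probes 26412 had 1 symbol through RefSeq accessions (GRCm38.p6, names only, since the array design used another build) and 13017 none. A log2 ratio is the mean over probes well above background on both arrays. Calls were folds of 1.5 and 2 with no test, since 1 array per group allows none, and the number of arrays limits precision. The ratio code was tested on simulated data. The members, pathways and lists were chosen with earlier results of these data known. Genes described with all values are those at least 1.5-fold different and the 2 that differ most in each pathway. Python 3.11.15, pandas 2.3.3, numpy 2.4.6 and limma 3.58.1 were used.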

Additional observations from a re-analysis of the deposited data

How the results depend on the processing

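The members' median log2 ratio kept its sign under all 11 alternatives, 10 planned and 1 (probes detected in either array compared) chosen after seeing the data. None of the alternatives scaled the arrays to the spike-in control probes. The median ranged from -0.43 to -0.15 for Dnmt1 shRNA over empty vector and from -0.16 to -0.075 for ATM vector over empty vector. The value of -0.43 came from subtracting array medians, which moved the median of all genes to -0.27 and left the difference from it at -0.16. That setting also gave 10 members at least 1.5-fold lower with Dnmt1 shRNA (19.6%, against 10.2% of all genes). Quantile normalization gave 3 (5.88%, against 4.72%) and normexp 2 (3.92%, against 1.83%), in place of 1 (1.96%, against 2.9%). With ATM vector, 0 members were at least 1.5-fold higher with normexp, with array medians, with the percentile over probes detected on all arrays and with the brightest probe of each gene (11.7% to 14.1% of all genes), so the call of Xpa depends on these choices. Members at least 1.5-fold lower with ATM vector numbered 4 to 7 (7.84% to 13.7%, against 11.3% and 12.8% of all genes under the same settings). Trp53bp1, Lig3 and Rnf168 passed under 11 of 11 alternatives, Brca1 under 10 and Brca2 under 7. Rnf168, Brca1, Brca2 and Rad54l have 1 probe each, well above background on all arrays. Alternatives that only choose among probes could not change their values, so these tallies overstate how far the calls were tried. Of 51 members, 38 were below 0 with Dnmt1 shRNA under every alternative and 30 with ATM vector. In the same order 2 and 14 were above 0 under every alternative. Subtracting array medians shifted all ratios with Dnmt1 shRNA down, which lowers the count above 0. The same counts were not made over all genes, so they describe the members alone. Normexp used median spot signals, since mean signals are not among the columns of the files used here. No paired analysis was possible because each group has 1 array. Signals near the detection level limit Chek1 and single probes of other members, such as the dimmer Trp53bp1 probe and the dimmest probes of Msh3 and Bard1.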
